A study of Mus musculus with 16 samples.

Results

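Tbx2, Tbx3, Tbx5 and Tbx20 encode T-box transcription factors, DNA-binding proteins that divide the embryonic heart into working chamber muscle and slowly conducting tissue. The 4 genes were taken by name and found among the 37991 genes of the deposited count table by their Ensembl identifiers: ENSMUSG00000000093 for Tbx2 on chromosome 11, ENSMUSG00000018604 for Tbx3 and ENSMUSG00000018263 for Tbx5, both on chromosome 5, and ENSMUSG00000031965 for Tbx20 on chromosome 9. In the annotation of the mouse build GRCm38, Tbx5 is the next protein-coding gene after Tbx3. All 4 passed the filter on low counts in each of the 9 comparisons made here.

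The 16 libraries hold RNA of 8 mouse embryos on the C57BL/6 background, with 1 library for each ventricle. The phenotype label gives hypoplastic left heart syndrome (HLHS), in which the left side of the heart is too small, for 3 embryos, and the other 5 were unaffected littermates, called controls. At embryonic stage E13.5 (day of gestation after the E) there was 1 HLHS embryo (replicate 1) and 1 control (replicate 1). At E14.5 there was 1 HLHS embryo (replicate 2) with controls 2 and 3, and at E17.5 there was 1 HLHS embryo (replicate 3) with controls 4 and 5, so that stage and litter cannot be told apart. The labels give no genotype. The published study is known for HLHS in mice with mutations in Sap130 and Pcdha9, and whether the controls carried either allele is not given in the sources used here. HLHS groups here are thus defined by the malformation and hold 1 embryo a stage.

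As background, TBX5 works with NKX2-5 and GATA4 to switch on chamber genes such as Nppa, which encodes atrial natriuretic peptide, and Gja5, which encodes the connexin of fast-conducting muscle. TBX20 is needed for ventricular muscle growth and holds Tbx2 down in the chambers. TBX2 and TBX3 are repressors that compete for the same DNA motif and keep chamber genes off in the atrioventricular canal and, for TBX3, in the conduction system, where BMP2 signalling turns them on.

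T-box proteins bind DNA at a short motif with the core GGTGT, extended to GGTGTGA. The 250 bases before the start of Nppa and of Gja5 are shown because these genes are the textbook targets of both the activating and the repressing members, and because both differed between the ventricles as described further on. The sequences are from RefSeq, build GRCm38.p6, and read 5′ to 3′ along the gene, with matches to the motif in capitals. Nppa lies at chr4:148000472-148000721 on the plus strand, and Gja5 at chr3:97032152-97032401 on the plus strand.
Nppa: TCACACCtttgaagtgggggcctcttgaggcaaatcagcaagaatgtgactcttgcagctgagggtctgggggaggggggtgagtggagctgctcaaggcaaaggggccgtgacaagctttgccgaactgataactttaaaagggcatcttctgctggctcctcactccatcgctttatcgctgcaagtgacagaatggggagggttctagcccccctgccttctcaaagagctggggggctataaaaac
Gja5: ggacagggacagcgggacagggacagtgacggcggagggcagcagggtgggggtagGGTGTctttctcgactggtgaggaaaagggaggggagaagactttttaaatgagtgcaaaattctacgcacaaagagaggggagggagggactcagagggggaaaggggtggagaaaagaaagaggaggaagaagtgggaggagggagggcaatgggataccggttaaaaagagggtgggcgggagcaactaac
In the Nppa stretch the extended motif lies on the opposite strand, where its 7 letters read TCACACC along the gene, and it begins 250 bases before the start. The Gja5 stretch holds the core alone, on the strand of the gene, beginning 194 bases before the start. Of the 4 T-box genes, only Tbx20 had a promoter stretch to search. That stretch, not printed here, held no match to either form of the motif. Searched on both strands, GGTGT occurs in 36.2% of 32851 promoter stretches of that length, and GGTGTGA in 3.33%, with every GGTGTGA also counted as a GGTGT. A match is a match of letters and not evidence of binding.

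Ventricular muscle markers summed to between 12600 and 19600 normalised counts (CPM, counts of a gene scaled to a common library size) in every library, and Myl2, the ventricular myosin light chain, ran from 1590 to 2270 CPM. Library totals ran from 17081273 to 28648645 counts. Counts behind the values below were 258 to 647 for Tbx2, 169 to 556 for Tbx3, 462 to 1358 for Tbx5 and 4703 to 8442 for Tbx20. In these bulk samples, fewer cells of a type and less RNA per cell cannot be told apart.

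Per length of transcript, Tbx20 was the most abundant of the 4 and Tbx3 the least. Over the 16 libraries, Tbx20 had a lowest, median and highest level of 23.6, 30.0 and 39.5 CPM per kilobase of its longest coding transcript. Tbx5 had 6.28, 11.2 and 15.8, Tbx2 had 3.69, 5.05 and 6.81, and Tbx3 had 1.29, 2.44 and 4.26 on the same scale. Within a library the order was the same in 16 of 16, Tbx20 above Tbx5 above Tbx2 above Tbx3, also when the length of all exons was used. Across libraries, the ranges of Tbx5 and Tbx2 overlapped, and so did those of Tbx2 and Tbx3. Levels per kilobase were also ranked among the 16209 genes that passed the filter on low counts over all 16 libraries, where a transcript length was known. They placed Tbx20 between the 77.3 and 87.7 percentile and Tbx3 between the 23.1 and 37.8 percentile of these expressed genes.

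**Figure D1:**
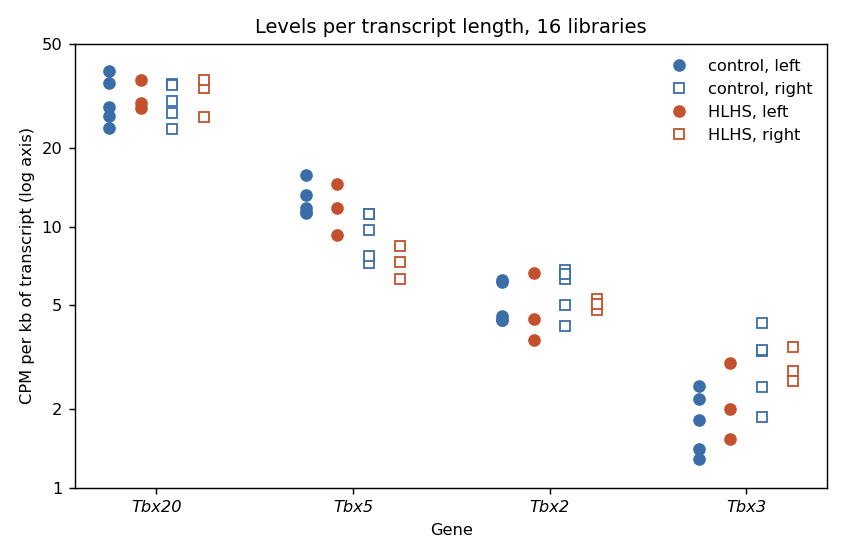
Level of each T-box gene in CPM per kilobase of its longest coding transcript (vertical log axis) in 16 libraries, 1 point a library, by phenotype and ventricle. Tbx20 sits highest, between 23.6 and 39.5, and Tbx3 lowest, between 1.29 and 4.26.

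Tbx5 was higher in the left ventricle than in the right, and Tbx3 was higher in the right. In control left ventricles, Tbx5 stood at 62.4 CPM at E13.5, 52.2 and 45.0 CPM at E14.5, and 46.4 and 44.4 CPM at E17.5 (replicates 1 to 5). In the right ventricles of the same embryos it stood at 38.1, 44.0, 28.6, 30.4 and 44.1 CPM. The left was above the right in each of the 5 embryos, by 1.01-fold in replicate 5 and by 1.19-fold to 1.64-fold in the others, and the lowest left value, 44.4 CPM, lay just above the highest right value. In an edgeR quasi-likelihood fit blocked by embryo, Tbx5 was 1.36-fold higher in the left (log2 difference 0.44 ± 0.10 SE, 95% confidence interval 0.23 to 0.65, n = 5 embryos, Benjamini-Hochberg adjusted p = 0.0244).

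Tbx3, the repressor of the conduction system, ran the other way. Its control left values were 9.07 CPM at E13.5, 7.01 and 6.42 CPM at E14.5, and 10.8 and 12.2 CPM at E17.5. The right ventricles of these embryos had 16.6, 21.2, 9.30, 12.1 and 16.8 CPM. The right was higher in 5 of 5 embryos, from 1.12-fold in replicate 4 to 3.03-fold in replicate 2 while the left and right values as groups overlapped. The log2 difference was -0.72 ± 0.17, which is 1.65-fold more in the right (95% confidence interval -1.09 to -0.35, edgeR adjusted p = 0.0331).

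Tbx2 and Tbx20 did not pass in this comparison. Control Tbx2 was 15.9, 15.9, 16.5, 22.7 and 22.2 CPM in the left against 15.1, 24.7, 18.2, 22.8 and 23.9 CPM in the right, a log2 difference of -0.17 with an interval of -0.38 to 0.04. The widest gap was in replicate 2 at E14.5, and the other 4 embryos had near-equal sides. Tbx20 was 359, 241, 217, 260 and 323 CPM in the left against 276, 318, 248, 214 and 316 CPM in the right, a log2 difference of 0.02 with an interval of -0.20 to 0.24. Tbx20 was lower in the left in both E14.5 embryos and higher in the left in the E13.5 and E17.5 embryos. In all, 2 of the 4 genes passed, where 6.10% of 16238 genes were called, 2.09% higher and 4.01% lower in the left.

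Both calls rest on the embryo block and on few embryos. That block carries stage and litter as well as the pairing of ventricles. Without the embryo as a block the edgeR adjusted p was 0.436 for Tbx3 and 0.477 for Tbx5, with the same differences. Neither passed without control replicate 1 (0.0865 and 0.0720) or replicate 3 (0.0718 and 0.0694), and Tbx5 missed without replicate 4 (0.0667).

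HLHS hearts had the same order of sides for these genes. HLHS Tbx5 was 57.7 CPM in the left and 24.8 in the right at E13.5, 46.6 and 28.9 at E14.5, and 36.6 and 33.1 at E17.5. The left was thus 2.33-fold, 1.61-fold and 1.11-fold above the right, with no overlap between the 3 left and the 3 right values. The fitted log2 difference was 0.70 ± 0.17, or 1.63-fold (95% confidence interval 0.31 to 1.09), and missed the threshold in edgeR (adjusted p = 0.0598). It passed in DESeq2 (adjusted p = 0.00422), without the filter on low counts (edgeR adjusted p = 0.000236), and without HLHS replicate 3, where the difference was 0.97 (edgeR adjusted p = 0.000758). Without HLHS replicate 1 the difference was 0.43 (edgeR adjusted p = 0.184), and without the embryo as a block the edgeR adjusted p was 0.411.

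HLHS Tbx3 was 7.69 CPM in the left and 14 in the right at E13.5, 10 and 12.8 at E14.5, and 15 and 17.3 at E17.5. The right was higher in 3 of 3 embryos (log2 difference -0.44 ± 0.15, 95% confidence interval -0.79 to -0.09, edgeR adjusted p = 0.190). HLHS Tbx2 was 16.1, 13.4 and 24.1 CPM in the left against 17.4, 19.2 and 18.4 in the right, and Tbx20 was 332, 270 and 259 against 308, 239 and 331. These sides crossed over: at E17.5 the HLHS left ventricle was above the right for Tbx2 and below it for Tbx20. None of the 4 genes passed, where 4.04% of 15771 genes were called, 1.15% higher and 2.89% lower in the left, and 2521 had an unadjusted p under the 0.05 threshold in edgeR. Of the 4, Tbx3 and Tbx5 were among the latter.

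Over all 8 embryos, Tbx5 was higher in the left in 8 of 8 and Tbx3 higher in the right in 8 of 8, while Tbx2 was higher in the right in 6 and Tbx20 higher in the left in 5. A fit of both phenotypes together, added after the values were seen and sharing the 5 control embryos with the one above, gave a log2 difference of 0.53 ± 0.11 for Tbx5 (edgeR adjusted p = 0.00773) and -0.62 ± 0.14 for Tbx3 (edgeR adjusted p = 0.0113). In that fit 11.7% of genes were called, 4.45% higher and 7.21% lower in the left. The ratio of Tbx5 to Tbx3 per kilobase shows both in 1 value. It ran from 3.08 to 9.48 in left ventricles and from 2.24 to 3.89 in right ventricles, and within an embryo it was higher on the left in all 8. The left ratio stood at 8.70 to 9.42 in the E13.5 and E14.5 controls and at 5.41 and 4.60 in the E17.5 controls.

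**Figure D2:**
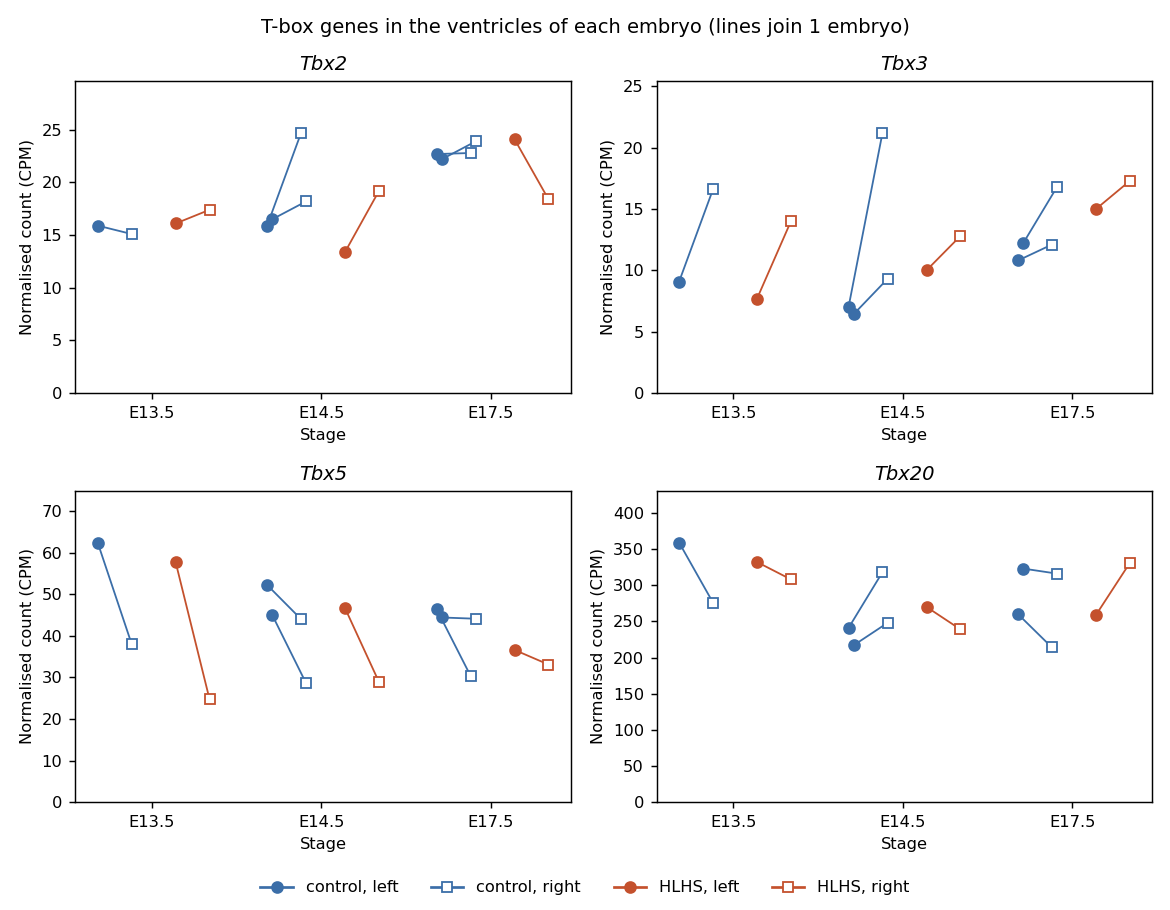
Normalised count (CPM, vertical axis from 0) of each T-box gene by stage, with filled circles for left and open squares for right ventricles and a line joining the 2 ventricles of an embryo. Lines fall from left to right for Tbx5 in 8 of 8 embryos and rise for Tbx3 in 8 of 8.

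Markers of tissue at the edge of the ventricles moved along the same axis. Of 15 tested markers of the atrioventricular canal and conduction system, the tissue known for Tbx2 and Tbx3 expression, 8 were lower and 1 higher in the control left ventricle (median log2 difference -0.43, against -0.01 over all genes). Over all genes, 4.01% were called lower and 2.09% higher in this comparison. The lower markers include Cntn2, a marker of conduction fibres (-2.38 ± 0.28), and Bmp2 (-1.89 ± 0.20). Hcn4, also on the list, was mixed: 22.7, 11.7, 7.9, 11.5 and 12.2 CPM in control left ventricles. In the right of the same embryos it was 16.4, 21.3, 8.73, 8.22 and 13 CPM. The list summed to 431 to 549 CPM in control left and 518 to 709 CPM in control right ventricles. Among its defining genes, Shox2 had 0 counts in all 16 libraries and Isl1 had 0 in 4. Of 12 atrial muscle markers, 8 were lower and 1 higher in the left, with sums of 1900 to 2820 CPM against 2380 to 3380 CPM in the right. Of 12 cushion and valve mesenchyme markers, 11 were lower in the left, with sums of 990 to 1320 CPM against 1330 to 1850 CPM. The part of these tissues in the sides of Tbx3 and Tbx5 was not tested.

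Control right ventricle replicate 2 at E14.5 held the highest Tbx3 of all libraries, 21.2 CPM against 9.30 CPM in replicate 3 of the same litter. It also held more Hcn4, the pacemaker channel (21.3 against 8.73 CPM), more Sln, an atrial gene (11.5 against 3.29 CPM), and more Isl1 (3.47 against 0.569 CPM). Its conduction list summed to 692 against 599 CPM, and its cushion list to 1850 against 1330 CPM, while the whole atrial list was near equal, at 2820 against 2780 CPM. Much of the atrial sum is Pam (1200 to 1600 CPM over all libraries) and Myl4 (367 to 1250 CPM), and Myl7 in it was 255 against 181 CPM. The conduction sum includes Kcne1 (132 to 287 CPM over all libraries), which is also on the ventricular muscle list. At E17.5, right ventricle replicate 5 had Tbx5 at 44.1 CPM against 30.4 CPM in replicate 4, with Sln at 37.1 against 15.7 CPM and atrial Myl7 at 325 against 222 CPM. The whole lists differed less: 2860 against 2380 CPM for atrial, 547 against 518 CPM for conduction and 1710 against 1470 CPM for cushion markers. Cntn2 went the other way, at 2.24 against 4.07 CPM. The part of other tissue in these values was not tested.

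In the HLHS left ventricle none of the 4 genes passed the test against littermate controls. Tbx5 was lower than the control mean of its litter in 3 of 3 litters, by 0.11, 0.06 and 0.31 on the log2 scale at E13.5, E14.5 and E17.5. The HLHS values themselves, 57.7, 46.6 and 36.6 CPM, overlapped the control range of 44.4 to 62.4 CPM. The fitted log2 difference was -0.16 ± 0.08 (95% confidence interval -0.34 to 0.01, n = 3 and 5, edgeR adjusted p = 0.204). Tbx3 was lower at E13.5 (7.69 against 9.07 CPM) and higher at E14.5 (10 against 7.01 and 6.42 CPM) and E17.5 (15 against 10.8 and 12.2 CPM). Its fitted log2 difference was 0.30 ± 0.14 (interval -0.01 to 0.61, edgeR adjusted p = 0.191).

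Tbx2 and Tbx20 lay closer to 0 in this comparison. The log2 difference of Tbx2 was -0.05 (interval -0.26 to 0.15), and that of Tbx20 was -0.003 (interval -0.22 to 0.22). Here 12.8% of 15979 genes were called, 6.17% higher and 6.61% lower, and 4599 had an unadjusted p under 0.05 in edgeR. No T-box gene of the 4 was among the latter. Without the E13.5 litter, that is without control or HLHS replicate 1, Tbx3 passed, with a log2 difference of 0.47 (edgeR adjusted p = 0.0421 and 0.0398). Without HLHS replicate 2 its difference was 0.14 (edgeR adjusted p = 0.647).

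The HLHS right ventricle gave the same count, 0 of 4, where 6.61% of 16142 genes were called, 3.56% higher and 3.05% lower, and 3795 had an unadjusted p under 0.05 in edgeR. Tbx5 was 24.8, 28.9 and 33.1 CPM in the 3 HLHS right ventricles and 28.6 to 44.1 CPM in the 5 controls, so that the groups overlapped. It was below its litter's control mean in 3 of 3 litters, by 0.62, 0.30 and 0.15 on the log2 scale. At E14.5 and E17.5 these gaps were smaller than the distance between the 2 control embryos of the litter, 0.62 and 0.53. The fitted log2 difference was -0.35 ± 0.16 (interval -0.70 to 0.01, edgeR adjusted p = 0.220).

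In the right ventricle Tbx3 was at 14, 12.8 and 17.3 CPM in HLHS against 9.30 to 21.2 CPM in controls, with a log2 difference of -0.06 ± 0.24. Tbx2 had -0.14 (interval -0.42 to 0.14) and Tbx20 had 0.08 (interval -0.25 to 0.40). Of 12 cushion and valve markers, 5 were higher in the HLHS right ventricle, where 3.56% of all genes were. This list summed to 2150 to 2460 CPM against 1330 to 1850 CPM in controls. In the left, red blood cell markers summed to 755 to 1350 CPM in HLHS against 470 to 830 CPM in controls. There 10 of 11 of them were higher, against 6.17% of all genes. The part of these cells in the T-box values was not tested.

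With both ventricles of an embryo summed, which uses the same libraries, Tbx5 was 1.18-fold lower in HLHS. The log2 difference was -0.24 ± 0.08 with an interval of -0.43 to -0.05, and the edgeR adjusted p of 0.0931 missed the threshold. Here 13.8% of 17429 genes were called, 6.85% higher and 6.93% lower, and 5112 had an unadjusted p under 0.05, and Tbx5 was the 1 of the 4 among the latter. Tbx5 did pass in DESeq2 (adjusted p = 0.0478), with sex as a term (edgeR adjusted p = 0.0370) and without control replicate 3 (edgeR adjusted p = 0.0416). These are 2 of 7 changed settings and 1 of 8 fits with 1 embryo left out, and it missed in the rest. The edgeR adjusted p was 0.224, 0.221 and 0.216 without HLHS replicate 1, 2 or 3, and 0.719 without the stage term. The summed log2 differences of the others were -0.09 ± 0.08 for Tbx2, 0.06 ± 0.19 for Tbx3 and 0.02 ± 0.10 for Tbx20.

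How far the HLHS effect differed between left and right was tested directly, within embryos. This difference was 0.08 ± 0.15 for Tbx2, 0.31 ± 0.22 for Tbx3, 0.17 ± 0.16 for Tbx5 and -0.09 ± 0.16 for Tbx20 on the log2 scale, left minus right. None passed in edgeR, where 1.04% of 16508 genes were called, 0.533% higher and 0.503% lower, and 1963 had an unadjusted p under 0.05, with none of the 4 among them. The intervals reached from -0.18 to 0.81 for Tbx3 and from -0.18 to 0.51 for Tbx5.

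**Figure D3:**
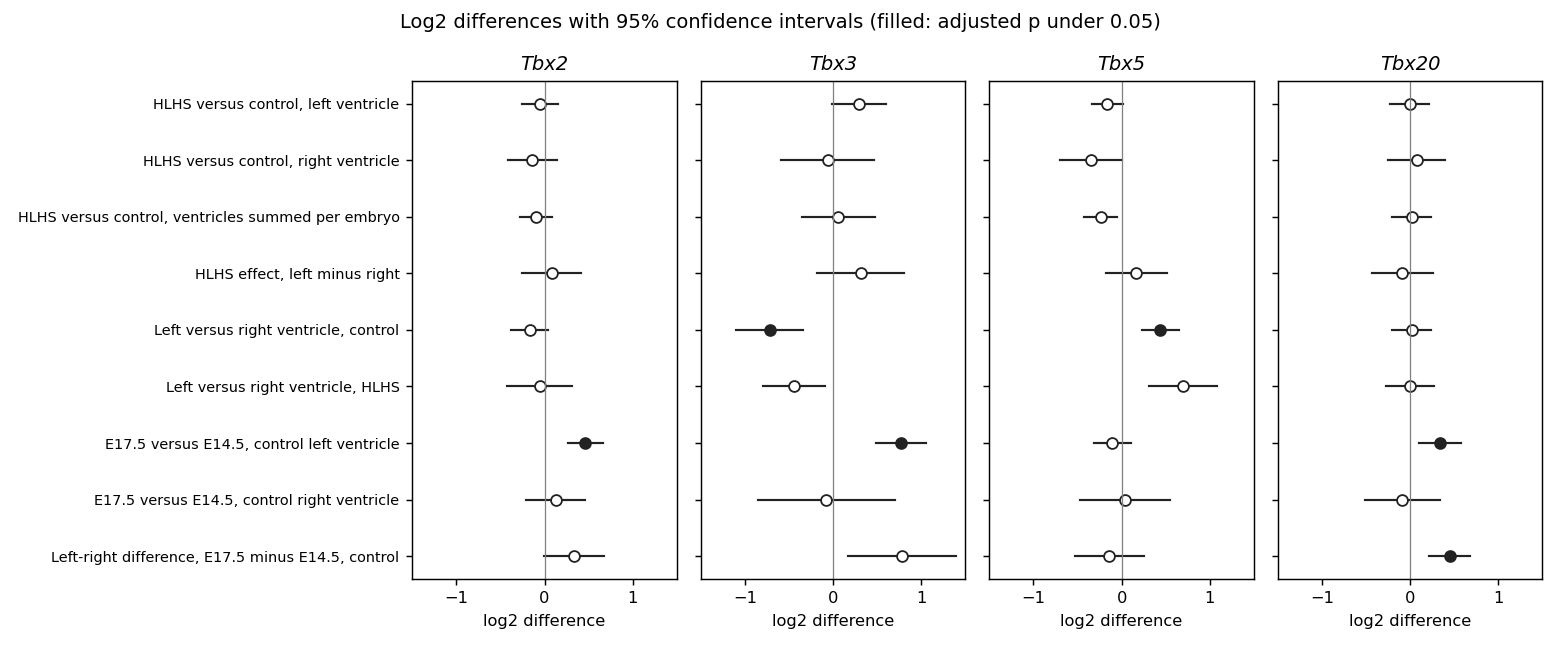
Log2 difference (horizontal axis) of each T-box gene in 9 comparisons, with its 95% confidence interval as a line and a filled point where the edgeR adjusted p was under 0.05. Filled points stand at left against right in controls for Tbx3 (-0.72) and Tbx5 (0.44), at stage in the control left ventricle for Tbx2, Tbx3 and Tbx20, and at the change of the left-right difference for Tbx20 (0.45).

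From E14.5 to E17.5 the control left ventricle gained Tbx2 and Tbx3. Left Tbx2 was 15.9 and 16.5 CPM at E14.5 and 22.7 and 22.2 CPM at E17.5, a rise of 1.38-fold (log2 0.46 ± 0.09, n = 2 embryos a stage, edgeR adjusted p = 0.00534). Left Tbx3 was 7.01 and 6.42 CPM at E14.5 and 10.8 and 12.2 CPM at E17.5, a rise of 1.71-fold (log2 0.77 ± 0.12, edgeR adjusted p = 0.00269). For both genes the 2 later embryos lay above the 2 earlier ones.

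Left Tbx20 rose from 241 and 217 to 260 and 323 CPM (log2 0.34 ± 0.10, edgeR adjusted p = 0.0343). It missed without control replicate 3 (0.0986) and without replicate 5 (0.111). Tbx20 stood higher, at 359 CPM, in the E13.5 control left ventricle, which is outside this comparison. In HLHS left ventricles Tbx20 was 332, 270 and 259 CPM at E13.5, E14.5 and E17.5. Left Tbx5 in controls was 52.2 and 45.0 CPM against 46.4 and 44.4 CPM, a log2 difference of -0.10 with an interval of -0.31 to 0.10. In this comparison 3 of the 4 genes were called, all higher, where 37.8% of 15441 genes were called, 20.1% higher and 17.7% lower.

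In the control right ventricle none of the 4 passed between these stages, where 18.6% of 15624 genes were called, 9.74% higher and 8.85% lower, and 5592 had an unadjusted p under 0.05 in edgeR. None of the 4 was among the latter. Right Tbx3 was 21.2 and 9.30 CPM at E14.5 and 12.1 and 16.8 CPM at E17.5, so that the earlier pair enclosed the later one (log2 -0.08 ± 0.33). Its direction rested on which E14.5 embryo was used. Without replicate 2 the log2 difference was 0.63 (edgeR adjusted p = 0.0163), and without replicate 3 it was -0.54 (edgeR adjusted p = 0.0192). Right Tbx2 moved from 24.7 and 18.2 to 22.8 and 23.9 CPM (log2 0.13 ± 0.15), right Tbx5 from 44.0 and 28.6 to 30.4 and 44.1 CPM (0.04 ± 0.22), and right Tbx20 from 318 and 248 to 214 and 316 CPM (-0.09 ± 0.18).

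The change of the left-right difference between the stages passed for Tbx20 alone of the 4, where 5.17% of 16021 genes were called, 3.86% higher and 1.31% lower. Left over right, Tbx20 was 0.758 and 0.877 in the E14.5 controls and 1.21 and 1.02 in the E17.5 controls. This gave a log2 change of 0.45 ± 0.11 (interval 0.21 to 0.68, edgeR adjusted p = 0.0381). The call was lost without the filter on low counts (0.0542), with DESeq2 size factors (0.0534), without the embryo as a block (0.534) and without control replicate 4 (0.470) or 5 (0.126). In HLHS, left over right for Tbx20 was 1.13 at E14.5 and 0.780 at E17.5, the opposite order, with 1 embryo a stage and no test. The change was 0.79 ± 0.28 for Tbx3 (edgeR adjusted p = 0.128), 0.33 ± 0.15 for Tbx2 (0.225) and -0.14 ± 0.18 for Tbx5 (0.688). Without control replicate 3, Tbx2, Tbx3 and Tbx20 passed, with 1.28 for Tbx3 and 0.57 for Tbx2. Without control replicate 2 the change was 0.20 for Tbx3 (edgeR adjusted p = 0.669) and 0.068 for Tbx2 (0.853).

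Of 13 other T-box genes in the table, most were scarce, and 7 were tested between control sides. Of these, 2 were higher and 0 lower in the left, where 2.09% and 4.01% of all genes were. Between HLHS sides, 1 of 7 tested was higher and 1 lower in the left, where 1.15% and 2.89% of all genes were. Tbx18, the T-box gene of the epicardium, ran from 34.9 to 87.9 CPM and was higher in the left in controls (log2 0.68 ± 0.07, edgeR adjusted p = 0.000564) and in HLHS (0.81 ± 0.09, edgeR adjusted p = 0.00306). T, the brachyury gene of early mesoderm, had 6 to 74 counts a library. It was the 1 called of 6 other T-box genes tested in the HLHS left ventricle, where it was lower. Over all genes, 12.8% were called there, 6.61% lower. Tbx4, the neighbour of Tbx2 on chromosome 11, had 13 counts at most. Mga, a large T-box and MAX-binding repressor, rose in the control left ventricle from E14.5 to E17.5 (0.44 ± 0.10, edgeR adjusted p = 0.0132). Of 5 other T-box genes tested there, 1 was higher and 1 lower, where 20.1% and 17.7% of all genes were.

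Among 18 DNA-binding partners and co-factors, 1 was higher and 4 were lower in the control left ventricle, where 2.09% of all genes were higher and 4.01% lower. Hand1, a factor of the left ventricle and outer curvature, was higher by 2.44 ± 0.10 on the log2 scale, and Hand2, the factor of the right ventricle, was lower by a difference of -0.34 ± 0.04. Gata5 was also lower in the left (-1.09 ± 0.17). The main partners of TBX5 did not pass between sides or phenotypes: Nkx2-5 had -0.07 ± 0.05 and Gata4 had -0.06 ± 0.04 between control sides. Against controls, Nkx2-5 had 0.05 ± 0.06 in the HLHS left and -0.17 ± 0.07 in the HLHS right, and Gata4 had 0.10 ± 0.07 and 0.07 ± 0.06. Of 17 partners tested in the HLHS left ventricle, 1 was higher and 1 lower, Hdac1 and Mef2c, a share near the 12.8% of all genes called there, and none of 18 passed in the right, where 6.61% of all genes did.

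BMP and Notch signals are known to act upstream of Tbx2 and Tbx3. The list for them holds genes at any step of these pathways, response genes included, and also Tgfb2. Of its 25 genes, 1 was higher and 6 were lower in the control left against the right. Over all genes, 2.09% were called higher and 4.01% lower there. Bmp2, the ligand of the atrioventricular canal, was lower in the left of controls, as given above, and higher in the HLHS left ventricle than in controls (log2 1.49 ± 0.20, edgeR adjusted p = 0.00248). In the HLHS left, 2 of the 25 were higher and 2 lower, with Tgfb2 at 0.89 ± 0.06, Bmp10, a ligand of trabecular muscle, at -1.54 ± 0.31, and Hey2, a Notch-regulated repressor, at -0.27 ± 0.06. That count is near the share over all genes there, 6.17% higher and 6.61% lower. In the HLHS right, 5 were higher and 1 lower, among them Bmp4 at 1.10 ± 0.17 and Bmp6 at 0.68 ± 0.14. There 3.56% of all genes were called higher and 3.05% lower. The median over the list was 0.06 in the left and 0.20 in the right, against 0.01 over all genes in each.

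Several genes known to be activated by TBX5 or TBX20 were lower in HLHS. Of 15, 5 were lower and 1 higher in the HLHS left ventricle, and 6 lower and 1 higher in the right. Over all genes, 6.61% were called lower and 6.17% higher in the left, and 3.05% and 3.56% in the right. Hey2 is counted both here and in the BMP and Notch list. The medians were -0.17 and -0.33, against 0.01 over all genes in each. Lower in the left were Tnni3, the adult cardiac troponin I (-0.52 ± 0.07), Atp2a2, the calcium pump of the sarcoplasmic reticulum (-0.37 ± 0.07), Pln, its inhibitor (-0.35 ± 0.06), and Hey2. Lower in the right were Irx4 (-0.38 ± 0.07), Hey2 (-0.33 ± 0.06), Tnni3 (-0.47 ± 0.10), Kcnj5 (-0.41 ± 0.09) and Ryr2, the calcium release channel (-0.40 ± 0.09).

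Nppa was the 1 higher gene of that list in the left. It stood at 259, 213 and 117 CPM in the HLHS left ventricles and at 216, 120, 116, 86.3 and 76.9 CPM in the control ones. In every litter the HLHS left ventricle was above its controls (log2 0.57 ± 0.09, edgeR adjusted p = 0.00540). In the right it was 132, 96.9 and 90.3 CPM in HLHS against 48.3 to 120 CPM in controls (0.48 ± 0.16, edgeR adjusted p = 0.108). Gja5 did not pass in either ventricle of HLHS (-0.17 ± 0.11 in the left and -0.28 ± 0.11 in the right).

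Between sides, both genes were higher in the left, as Tbx5 was. Control left Gja5 was 219, 209, 204, 124 and 122 CPM, and control right Gja5 was 82.9, 68.8, 75.7, 49.6 and 69.9 CPM. The sides did not overlap, and the log2 difference was 1.31 ± 0.10 (edgeR adjusted p = 6.89e-05). Nppa, with the motif match printed above, was higher in the control left by 0.73 ± 0.13 (edgeR adjusted p = 0.0105) and in the HLHS left by 0.85 ± 0.14 (edgeR adjusted p = 0.0132). Of 9 genes known to be repressed by TBX2 or TBX3, 3 were higher and 1 lower in the control left, and 6 higher and none lower in the HLHS left. The lower one was Cdkn1a (-0.33 ± 0.05). This list overlaps the one above, with Nppa and Gja5 in both. Over all genes, 2.09% were called higher and 4.01% lower between control sides, and 1.15% and 2.89% between HLHS sides. The medians of the list were 0.17 and 0.52, against -0.01 and 0.01 over all genes.

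Of 11199 genes with a sufficient level, Cacna1g, a calcium channel of pacemaker tissue, had the pattern most like Tbx3 over the 16 libraries, with a Pearson r of 0.90 on log2 CPM. Cacna1g ran from 27.5 CPM in the library with the least Tbx3 to 90.0 CPM. The gene most like Tbx20 was Abl2, with 0.94, that most like Tbx5 was Lmntd1, with 0.86, followed by Gja5 with 0.83, and that most like Tbx2 was Ano1, with 0.88. With each stage's mean taken away, r was 0.88 for Cacna1g with Tbx3, 0.93 for Abl2 with Tbx20 and 0.85 for Gja5 with Tbx5, while the genes most like Tbx2, Tbx3 and Tbx5 became Slc9a7 (0.87), Cc2d1a (0.90) and Zgrf1 (0.91). These r describe libraries that share embryos, litters and dissection, and the genes were picked as the highest of many. Among the 4 themselves the r lay between -0.41 for Tbx3 with Tbx5 and 0.54 for Tbx2 with Tbx3.

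**Figure D4:**
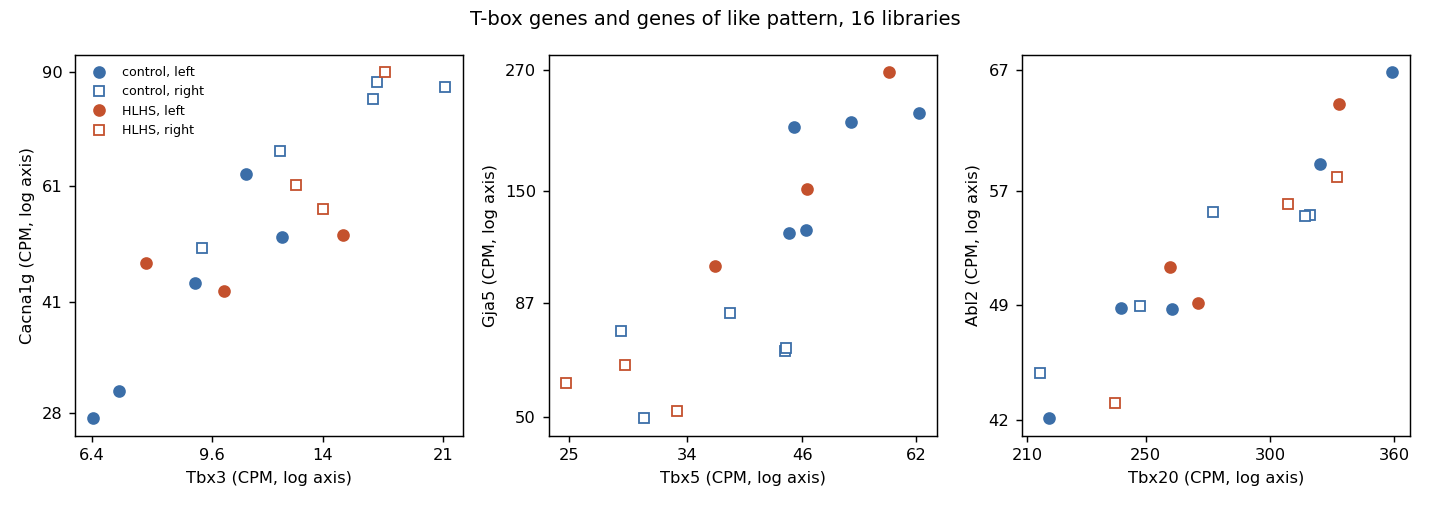
Level (CPM, log axes) of Tbx3 against Cacna1g, Tbx5 against Gja5 and Tbx20 against Abl2, 1 point a library, by phenotype and ventricle. Points rise together in each panel (r of 0.90, 0.83 and 0.94), with left and right ventricles apart along the Gja5 axis and overlapping along the Tbx5 axis.

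Genes of the regions around the 4 in the genome were read beside them. Of 9 tested between control sides, 1 was lower and 1 higher in the left, where 4.01% and 2.09% of all genes were. The lower one was Bmper, which encodes a BMP-binding protein (-1.26 ± 0.12), and the higher one was Brip1 (0.33 ± 0.08). Neither is among the protein-coding genes next to the 4. The antisense gene Tbx3os1 shares 115 exon bases with Tbx3 and had 4 counts at most in a library.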

How the data were processed

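The authors deposited 1 table of counts, whole numbers of reads for each gene in 16 libraries, made with the TruSeq kit per the labels. The submitters' processing notes name build mm9 and the tools HTSeq 0.5.4p5, TopHat2 2.0.9, edgeR 3.4.2 and Picard, with no order or role. The authors' own comparisons were not used. How reads were assigned to strands, whether duplicates were dropped and which annotation served are not stated.

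Of 37991 genes, 32919 had a symbol, and the rest held 0.492% of counts. Transcript lengths are from the GRCm38 annotation. Tests used edgeR 4.0.16 in R 4.3.3: TMM factors, filterByExpr (minimum count 10, minimum total 15), glmQLFit and glmQLFTest, with Benjamini-Hochberg adjustment over all genes at 0.05. CPM use the TMM factors. Stage was a term for HLHS against control, and the embryo a block for left against right. E17.5 and E14.5 controls were set against each other within a side, and side by stage was kept in the test of the HLHS effect on left minus right. The replicate number marks the embryo in the labels, so it pairs the ventricles. Same-embryo ventricles had deviations from the group mean with r over genes from 0.475 to 0.756 in controls and from 0.410 to 0.687 in HLHS. Ventricles of different embryos had r from -0.61 to 0.562 in controls and from -0.579 to 0.0105 in HLHS. The same-embryo and other-embryo ranges thus overlapped in controls and lay apart in HLHS. Each group mean was taken over all stages, and the part of a shared stage in these r was not tested. No library was a copy: chi-square over degrees of freedom was at least 7.51 for 26 pairs. Sex matched between ventricles in 8 of 8 embryos.

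The 4 genes and the gene lists were chosen with earlier results of these data known. The text names the 4 in every comparison, up to 5 called members of a list by smallest p, Nppa, Gja5, Hey2, Nkx2-5, Gata4, Hand1 and Hand2 at any value, and the genes of highest Pearson r with each of the 4 among those with a mean log2 CPM of at least 2. Values of Sln, Hcn4, Isl1, Myl7, Myl2, Tbx4 and Cdkn1a were seen before they were named. Fits were tested on simulated data. The settings varied were the size factors (DESeq2), the tool (DESeq2 1.42.0, limma-voom in limma 3.58.1), the filter (none, or 1 CPM in 3 libraries), the block, sex as a term, and each embryo left out.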

Additional observations from a re-analysis of the deposited data

Results flagged for a closer look

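Tbx20 was flagged because its left-right difference in controls changed between stages by a test of the change itself, by 0.45 on the log2 scale. Both E14.5 embryos had less Tbx20 in the left ventricle than in the right (0.758 and 0.877 left over right), and both E17.5 embryos had more (1.21 and 1.02). With 1 litter a stage, stage and litter cannot be told apart. An outlier test flagged 0 of 8 sets of values among the control groups of 5, the groups large enough to examine. Each set held 5 values from 3 stages, so only a value far from the rest could be flagged.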

How the results depend on the processing

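The calls depend on the replicate block: without it, 0 of the 4 genes passed between control sides and 0 in the change of sides with stage. Between control sides, leaving out the embryo also left out stage and litter, so the part of the pairing alone was not tested. Stage stayed a term in the change of sides with stage. That change also had 0 with DESeq2 size factors and 0 with no count filter. For summed ventricles, DESeq2 and sex as a term each called 1, and between HLHS sides DESeq2 and no count filter each called 1. For HLHS in the left, right and summed ventricles the block was the stage term, and without it 1, 0 and 0 of all genes were called. Without the embryo block, 24 of all genes were called for the HLHS difference between sides. The same setting called 32 and 4 between control and HLHS sides and 0 for the change with stage. No filter gave 1720 genes in the HLHS right, 356 for the HLHS difference between sides, 1570 and 1309 between control and HLHS sides and 510 for the change with stage. DESeq2 gave 267 for the HLHS difference between sides and 210 for the change with stage, and sex as a term gave 601 in the HLHS right. Chosen after seeing the data, leaving out side by stage gave 3 genes for the HLHS difference between sides, against 171, and all 8 embryos gave 1924 between sides, against 990; neither changed which of the 4 genes passed. No block was possible within 1 side for the stages. Small differences changed sign. Tbx20 went to 0.037 in the HLHS left without the stage term and to -0.02 in summed ventricles with sex as a term. With limma-voom, Tbx20 went to 0.00 between HLHS sides and Tbx3 to 0.015 between right stages.

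With 1 embryo left out, 0 to 1 of the 4 genes were called for HLHS in the left ventricle, 0 to 1 summed, 0 to 2 between control sides, 0 to 1 between HLHS sides, 2 to 3 between left stages, 0 to 1 between right stages and 0 to 3 for the change with stage. Those over all genes were 845 to 2309, 195 to 1518 and 865 to 2135 for HLHS in the left, right and summed ventricles, 60 to 271 for the HLHS difference between sides, 486 to 883 and 270 to 1117 between control and HLHS sides, 1122 to 3346 between right stages and 25 to 2459 for the change with stage. The differences that changed sign ran as follows. In the HLHS left, Tbx2 ran from -0.15 to 0.066 and Tbx20 from -0.15 to 0.10. In the HLHS right, Tbx3 ran from -0.25 to 0.16 and Tbx20 from -0.07 to 0.24. Summed, Tbx3 ran from -0.089 to 0.21 and Tbx20 from -0.046 to 0.079. For the HLHS difference between sides, Tbx2 ran from -0.16 to 0.21 and Tbx20 from -0.41 to 0.16. Between sides, Tbx20 ran from -0.071 to 0.14 in controls and from -0.11 to 0.17 in HLHS, and HLHS Tbx2 from -0.30 to 0.16. Between stages, left Tbx5 ran from -0.21 to 0.011, right Tbx2 from -0.063 to 0.35, right Tbx3 from -0.54 to 0.63, right Tbx5 from -0.24 to 0.38 and right Tbx20 from -0.39 to 0.15. For the change with stage, Tbx5 ran from -0.43 to 0.14. Where a stage kept 1 embryo, it was assumed to vary like the others. The cause of these changes was not tested. Depth limits Tbx3 most, with 169 counts in its lowest library.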
